A study of Mus musculus with 2 samples.

Results

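The genes described here are Atf4 and 9 genes of the integrated stress response, namely Ddit3, Trib3, Ppp1r15a, Chac1, Asns, Psat1, Sesn2, Slc7a11 and Ddit4. They were taken by name, through their Entrez gene identifiers, and make up 10 of the 17216 genes listed in at least 1 of the libraries. All 10 were listed in both libraries. The list was chosen by pathway knowledge with earlier FPKM values of these libraries in view, which had shown Trib3, Ppp1r15a, Ddit3 and Atf4 lower in the knockout library, so the differences below are a description and carry no test.

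RNA came from cells sorted from C57BL/6 mice as long-term haematopoietic stem cells, rare cells of the bone marrow from which all blood lineages are renewed. The sort kept cells positive for Sca-1, c-Kit and CD150 and negative for CD48 and for markers of mature lineages. One group was Ccp3-/- and the other was wild type littermates, with 1 library each. CCP3 is a cytosolic carboxypeptidase that removes glutamate residues from proteins. The labels give no age, no sex, no number of pooled animals and no description of the deleted part of the gene. The values are FPKM, that is, fragments scaled for transcript length and for library depth. Low FPKM values fell on steps that correspond to single reads, from which depths of about 14.2 M reads in the knockout library and 15.4 M reads in the wild type library were estimated.

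The genotype label could not be checked from the files. Agbl3, the gene of CCP3, was listed at 0.66 FPKM in the knockout library and 1.11 FPKM in the wild type library, from about 15 reads in the knockout library and 23 in the wild type library. The ratio of knockout to wild type was 0.595, with a 95% counting interval of 0.290 to 1.19, so no reduction could be detected with so few reads. The library is therefore called knockout-labelled below, and every direction rests on that label. All 13 stem cell markers examined were measured, but Cd48, whose protein the sort excluded, was listed at 114 FPKM in the knockout-labelled library and 136 FPKM in the wild type library. Slamf1, which encodes the CD150 protein that the sort required, had 3.40 FPKM in the knockout-labelled library and 2.14 FPKM in the wild type library. With 1 library per genotype, each value compares these libraries, and differences between animals cannot be told apart from differences between genotypes. In such bulk samples, fewer cells of a type and less RNA per cell cannot be told apart either.

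In the integrated stress response, kinases phosphorylate the alpha subunit of the translation initiation factor eIF2 when amino acids are short, unfolded protein accumulates in the endoplasmic reticulum (ER), haem is lacking or viral RNA is present. General translation then drops, while the mRNA of the transcription factor ATF4 is translated more, so ATF4 activity is set largely by translation and Atf4 RNA is an incomplete measure of it. ATF4 switches on genes for amino acid synthesis and import and for the factor CHOP, the product of Ddit3, and PPP1R15A closes the loop by bringing a phosphatase to eIF2. In blood stem cells this pathway is known for its part in survival under amino acid shortage.

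ATF4 and its C/EBP partners bind a composite DNA element, here searched as TGATGNAA on both strands (TTNCATCA on the other), and ATF factors also bind the palindromic cyclic AMP element TGACGTCA. The sequences below are shown because 5 of the 10 genes held one of these motifs between 250 bases before and 50 bases after the annotated start, in RefSeq promoter windows of GRCm38.p6. Each is printed in the direction of transcription, as the 250 bases before the start, except Trib3, whose match lies 15 bases into the transcript and is shown as a site of 30 bases. Capitals mark the matches. They lie at chr2:119350992-119351241 (plus strand) for Chac1, chr6:7693210-7693459 (minus strand) for Asns, chr3:50443614-50443863 (minus strand) for Slc7a11, chr7:45526269-45526518 (minus strand) for Ppp1r15a and chr2:152344028-152344057 (minus strand) for Trib3.
Chac1: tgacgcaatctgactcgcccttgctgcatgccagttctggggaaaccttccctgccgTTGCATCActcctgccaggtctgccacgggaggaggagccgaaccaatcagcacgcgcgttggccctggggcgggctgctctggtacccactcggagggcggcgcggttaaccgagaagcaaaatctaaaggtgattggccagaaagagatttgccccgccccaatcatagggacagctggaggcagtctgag
Asns: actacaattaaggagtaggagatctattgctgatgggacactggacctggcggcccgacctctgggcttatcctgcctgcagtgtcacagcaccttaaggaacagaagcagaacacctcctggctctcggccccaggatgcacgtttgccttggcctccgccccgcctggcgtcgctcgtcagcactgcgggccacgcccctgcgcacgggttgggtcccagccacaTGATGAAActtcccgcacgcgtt
Slc7a11: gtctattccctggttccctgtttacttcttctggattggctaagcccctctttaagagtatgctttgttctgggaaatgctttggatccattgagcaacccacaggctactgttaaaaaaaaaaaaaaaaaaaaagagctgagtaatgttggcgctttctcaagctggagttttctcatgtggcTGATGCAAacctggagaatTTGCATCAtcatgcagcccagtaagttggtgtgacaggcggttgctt
Ppp1r15a: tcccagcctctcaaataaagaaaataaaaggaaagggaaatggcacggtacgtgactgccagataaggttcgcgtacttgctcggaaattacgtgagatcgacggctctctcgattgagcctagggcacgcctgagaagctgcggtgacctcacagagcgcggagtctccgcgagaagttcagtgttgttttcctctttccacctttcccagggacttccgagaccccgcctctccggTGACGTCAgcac
Trib3: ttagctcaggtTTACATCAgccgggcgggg

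The composite element stood 193 bases before the start in Chac1 and 23 bases before it in Asns. Slc7a11 held a pair of matches, 66 and 47 bases before the start and in opposite orientations. Ppp1r15a held the palindromic element 12 bases before the start and no composite element. Among all 32851 promoter windows, 3.97% held the composite element and 1.79% the palindromic one, and the letters of the 2 motifs cannot coincide in full. The windows of Atf4, Ddit3, Psat1 (which has 2), Sesn2 and Ddit4 held neither.

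Levels of the 10 genes, all on the FPKM scale, spanned more than 2 orders of magnitude, and their order was the same in both libraries. Atf4 came first, followed by Slc7a11, Ppp1r15a, Psat1, Ddit3, Asns, Ddit4, Sesn2, Trib3 and Chac1. Atf4 held rank 411 of 16318 genes listed in the knockout-labelled library and rank 366 of 16532 in the wild type library. Chac1 held rank 12601 in the knockout-labelled library and rank 13781 in the wild type library. Neighbours in this order were separated by more than their 95% counting intervals, except Trib3 and Chac1 in the knockout-labelled library and Sesn2 and Trib3 in the wild type library.

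**Figure D1:**
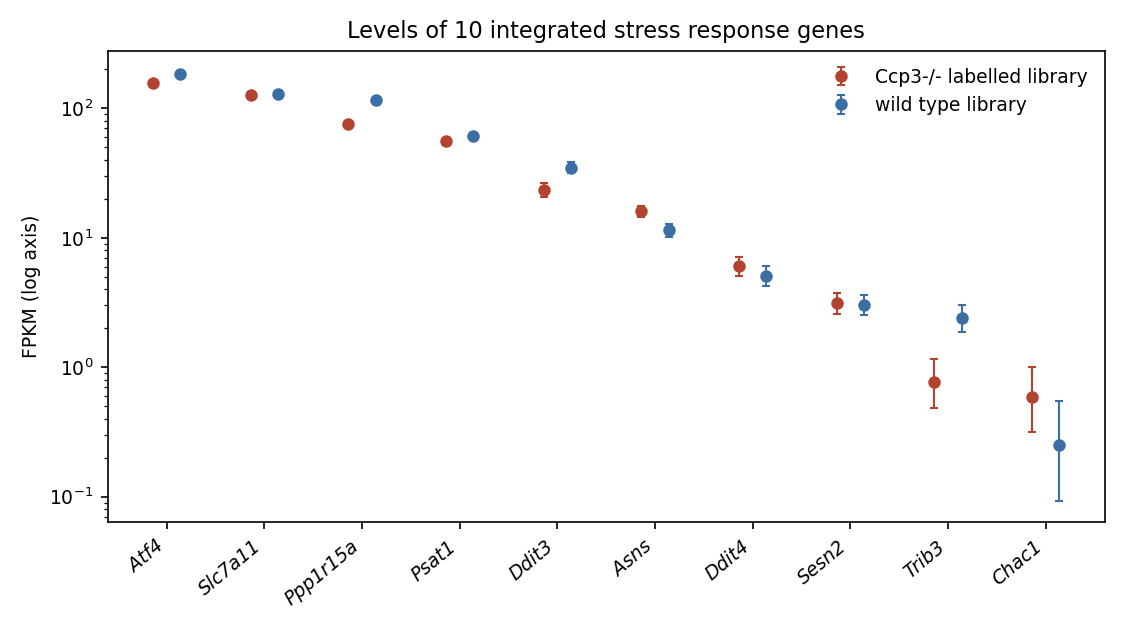
FPKM of the 10 genes (log axis) in the Ccp3-/- labelled library and the wild type library, 1 library each, with 95% Poisson intervals of the estimated reads as bars. Trib3, Ppp1r15a, Ddit3 and Atf4 were lower in the Ccp3-/- labelled library by more than these bars, and Asns was higher.

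Of the 10 genes, Trib3 and Ppp1r15a were lower in the knockout-labelled library by at least 1.5-fold. Only Chac1 was higher by that much, at a ratio of 2.36, but its few reads gave no clear direction (0.830 to 7.51). Ddit3 (ratio 0.675) and Asns (ratio 1.40) differed by less than 1.5-fold, though by more than counting error. A gene was taken as measured when it averaged 1 FPKM or more over the libraries, and as past the rule when the libraries were 1.5-fold or more apart on the scale log2(FPKM + 1), which understates the change of low genes. In all, 9 of the 10 genes reached that mean, and Chac1 did not. Of these 9, 2 were lower past the rule, 0 were higher and 7, Ddit3 and Asns among them, lay within it, while 6.13% of the 11985 genes measured were lower past the rule and 6.11% were higher. The median difference of the 9 genes, knockout-labelled minus wild type, was -0.12, against 0.01 over all genes measured, and 6 of the 9 were below 0, as were 49.0% of all genes.

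Atf4 itself (gene 11911) was listed at 156 FPKM in the knockout-labelled library and 184 FPKM in the wild type library, from about 3272 reads in the knockout-labelled and 4201 in the wild type library. The ratio was 0.848 (95% counting interval 0.809 to 0.887), which is a log2 difference of -0.24. This lay far inside the 1.5-fold rule, and with equal FPKM sums, which shift the all-gene median to 0.18, the difference was -0.05. Its mean transcript length over the 2 listed transcripts was 1511 bases in the knockout-labelled library and 1521 bases in the wild type library. Genes of that length had a median difference of -0.13, and Atf4 stood at -0.10 once that median was subtracted.

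Ddit3 (gene 13198), which encodes the stress factor CHOP, was listed at 23.5 FPKM in the knockout-labelled library and 34.8 FPKM in the wild type library. The ratio was 0.675 (0.578 to 0.787), and the log2 difference of -0.55 lay just inside the rule, whose limit is 0.58. Ddit3 transcripts are short, about 858 bases in the knockout-labelled library, and genes of similar length had a median of -0.29. After that median was subtracted the difference was -0.26. Per unit of Atf4, the level of Ddit3 was 0.150 in the knockout-labelled library and 0.189 in the wild type library, a ratio of ratios of 0.796 (0.680 to 0.932). The annotated gene overlaps Mbd6 and Mars1, and use of strand in counting is not given in the sources used here, so some reads of Ddit3 may belong to these neighbours. Both neighbours were slightly higher, Mbd6 (55.7 FPKM knockout-labelled, 48.6 FPKM wild type) and Mars1 (31.4 FPKM knockout-labelled, 28.9 FPKM wild type). The part of the overlap in the difference of Ddit3 was not tested.

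Trib3 (gene 228775), a pseudokinase gene induced by ATF4 and CHOP, had the lowest ratio of the members. It was listed at 0.77 FPKM in the knockout-labelled library and 2.40 FPKM in the wild type library, from about 22 reads in the knockout-labelled and 74 in the wild type library. The ratio was 0.321 (0.190 to 0.523), so the wild type level was 3.12-fold the knockout-labelled one. On the log2(FPKM + 1) scale the difference was -0.94, and -0.89 against genes of similar length. Trib3 passed the filter on low values through its wild type level, and with a pseudocount of 5 its difference was -0.36, which ends the call and is smaller than those of Ppp1r15a (-0.58) and Ddit3 (-0.48) at that setting. Relative to Ddit3, Trib3 stood at 0.0328 in the knockout-labelled library and 0.0689 in the wild type library, a ratio of ratios of 0.476 (0.289 to 0.784).

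Ppp1r15a (gene 17872), also called GADD34, encodes the stress-induced regulator that brings protein phosphatase 1 to eIF2. It was listed at 75.1 FPKM in the knockout-labelled library and 115 FPKM in the wild type library. With about 2462 knockout-labelled and 4069 wild type reads, the ratio of 0.654 had a narrow counting interval of 0.622 to 0.688. The log2 difference of -0.61 was just past the rule. It moved inside the rule when the libraries were scaled to equal sums (-0.42), with a pseudocount of 5 (-0.58, within rounding of the limit) and after centring on transcript length (-0.56).

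Asns (gene 27053), asparagine synthetase, was the one measured member whose counting interval lay above 1. It was listed at 16.0 FPKM in the knockout-labelled library and 11.4 FPKM in the wild type library, a ratio of 1.40 (1.21 to 1.62). Its log2 difference was 0.45, or 0.56 after length centring, in each case inside the rule. With equal sums it was 0.63, past the rule. Per unit of Atf4, Asns stood at 0.102 in the knockout-labelled library and 0.0620 in the wild type library.

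Psat1 (gene 107272), which acts in serine synthesis, was listed at 55.9 FPKM in the knockout-labelled library and 61.0 FPKM in the wild type library, a ratio of 0.916 (0.858 to 0.978). Slc7a11 (gene 26570), the cystine importer that supplies glutathione synthesis, was nearly equal, at 126 FPKM in the knockout-labelled library and 128 FPKM in the wild type library, with a ratio of 0.981 and a counting interval of 0.960 to just above 1. Its transcript of 9227 bases is the longest of the 10, and genes of similar length had a median of 0.33, so Slc7a11 stood at -0.36 after centring. Both genes were slightly below 0 as deposited and slightly above it when sums were made equal, at 0.06 for Psat1 and 0.16 for Slc7a11.

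Sesn2 and Ddit4, whose products restrain the growth kinase mTORC1, did not differ beyond counting error. Sesn2 (gene 230784) was listed at 3.12 FPKM in the knockout-labelled library and 3.04 FPKM in the wild type library, a ratio of 1.03 (0.791 to 1.34). Ddit4 (gene 74747) was listed at 6.06 FPKM in the knockout-labelled library and 5.11 FPKM in the wild type library, a ratio of 1.19 (0.931 to 1.52). The intervals still allow levels up to 1.34-fold (Sesn2) and 1.52-fold (Ddit4) those of the wild type library. Chac1 (gene 69065), which breaks down glutathione, was near the limit of detection, at 0.59 FPKM from about 13 reads in the knockout-labelled library and 0.25 FPKM from about 6 reads in the wild type library. Its ratio of 2.36 had an interval of 0.830 to 7.51, so no direction could be read at this depth.

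**Figure D2:**
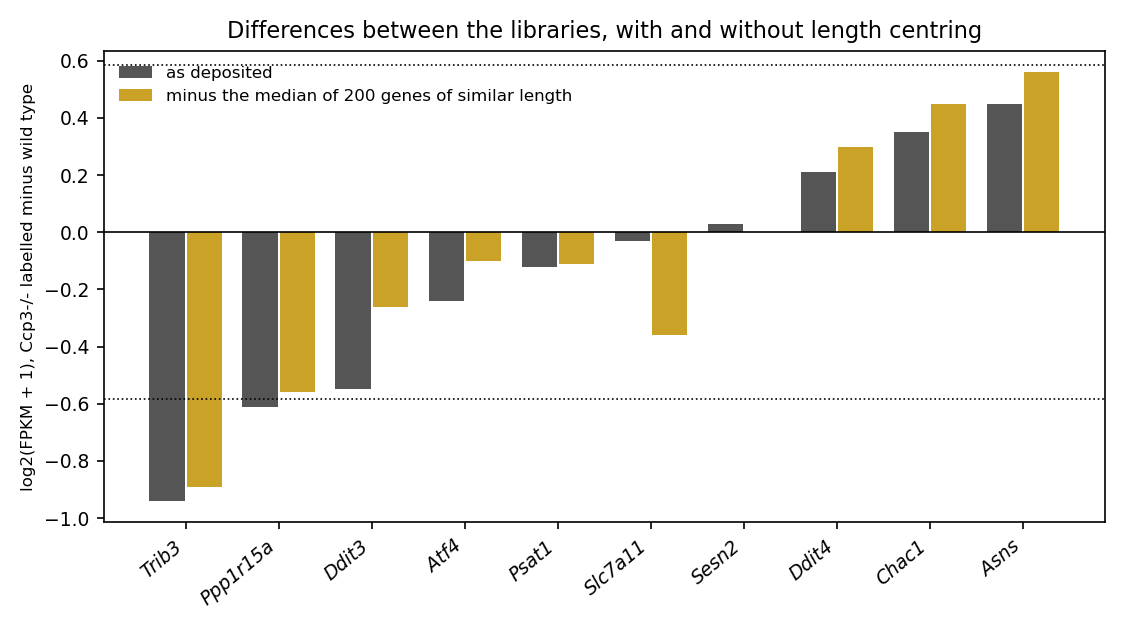
Difference of each gene between the libraries on the log2(FPKM + 1) scale, Ccp3-/- labelled minus wild type, as deposited and after subtracting the median of the 200 genes nearest in transcript length; dotted lines mark 1.5-fold. Trib3 stayed past the line in both forms, Ppp1r15a was past it only as deposited, and Slc7a11 moved from -0.03 to -0.36.

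Differences followed transcript length across the whole series, and the values against genes of similar length are given for that reason. The median difference was -0.30 over 1212 genes under 1000 bases, -0.14 over 2820 genes of 1000 to 2000 bases and 0.25 over 1782 genes above 5000 bases. After centring, 1 of the 9 measured members was past the rule and lower, namely Trib3, with 6 of 9 below 0 and a median of -0.11. By counting intervals alone, 5 of the 9 lay below 1 (Atf4, Ddit3, Trib3, Ppp1r15a and Psat1) and 1 above it, while such intervals lay below 1 for 27.0% of all genes and above 1 for 31.2%.

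Of the 4 members with the composite element in their promoter window, Trib3 was lower past the rule, Slc7a11 and Asns lay within it at -0.03 and 0.45, and Chac1 was too low to be measured. Across the series, 268 measured genes held the element, of which 7.46% were lower and 6.72% higher past the rule, against 5.41% and 5.33% of the 9244 genes whose windows lacked it. The median difference was 0.00 in both sets.

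Upstream of ATF4 are the kinases that phosphorylate eIF2. All 9 measured kinases and cofactors lay within 1.5-fold, with a median of 0.08, as did 87.8% of all genes measured. Eif2ak3, which encodes the ER kinase PERK, was listed at 8.31 FPKM in the knockout-labelled library and 6.21 FPKM in the wild type library. Gcn1, a partner of the amino acid sensing kinase GCN2, was listed at 17.6 FPKM in the knockout-labelled library and 14.6 FPKM in the wild type library. Eif2ak4, the gene of GCN2 itself, had 11.5 FPKM in the knockout-labelled library and 10.1 FPKM in the wild type library. After length centring the differences were 0.23 for Eif2ak3, -0.10 for Gcn1 and 0.00 for Eif2ak4. These values concern RNA only, and phosphorylation of eIF2 was not measured.

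A list of 9 genes held subunits of eIF2 and eIF2B, which form the target of the kinases and its exchange factor. It also held Eif2a, which encodes a separate initiation factor and no subunit of either. Past the rule, 6.11% of all genes measured were higher and 6.13% lower. Of the 9 genes, 1 was higher past the rule and 0 were lower, with a median of 0.12. That gene was Eif2s3x, the X-linked gene of the eIF2 gamma subunit, at 87.3 FPKM in the knockout-labelled library and 51.1 FPKM in the wild type library, a ratio of 1.71 (1.63 to 1.79). Its Y-linked copy Eif2s3y, looked up after these values were seen, was listed at 11.5 FPKM in the knockout-labelled library and 44.6 FPKM in the wild type library, a ratio of 0.259 (0.227 to 0.294). The sum of both copies was 98.8 FPKM in the knockout-labelled library and 95.7 FPKM in the wild type library, a ratio of 1.03. Xist, which silences one X chromosome in female cells, was at 44.2 FPKM in the knockout-labelled library and 5.38 FPKM in the wild type library, and the part of sex in other differences was not tested. Because the copies are similar in sequence, reads may have been split between them.

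The 2 regulators of the eIF2 phosphatase differed in opposite directions. Ppp1r15b, which encodes the constitutive counterpart of PPP1R15A, was listed at 29.3 FPKM in the knockout-labelled library and 15.9 FPKM in the wild type library, a ratio of 1.84 (1.72 to 1.97). The level of Ppp1r15a per unit of Ppp1r15b was 2.56 in the knockout-labelled library and 7.21 in the wild type library, a ratio of ratios of 0.356 (0.327 to 0.387), which no scaling of the libraries can change. Ppp1r15b is a long transcript, of 5588 bases, and its difference of 0.84 was 0.64 after length centring. Among the catalytic subunits of protein phosphatase 1, Ppp1cb was higher, at 36.9 FPKM in the knockout-labelled library and 19.3 FPKM in the wild type library, while Ppp1ca (191 FPKM knockout-labelled, 235 FPKM wild type) and Ppp1cc (127 FPKM knockout-labelled, 121 FPKM wild type) lay within the rule.

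**Figure D3:**
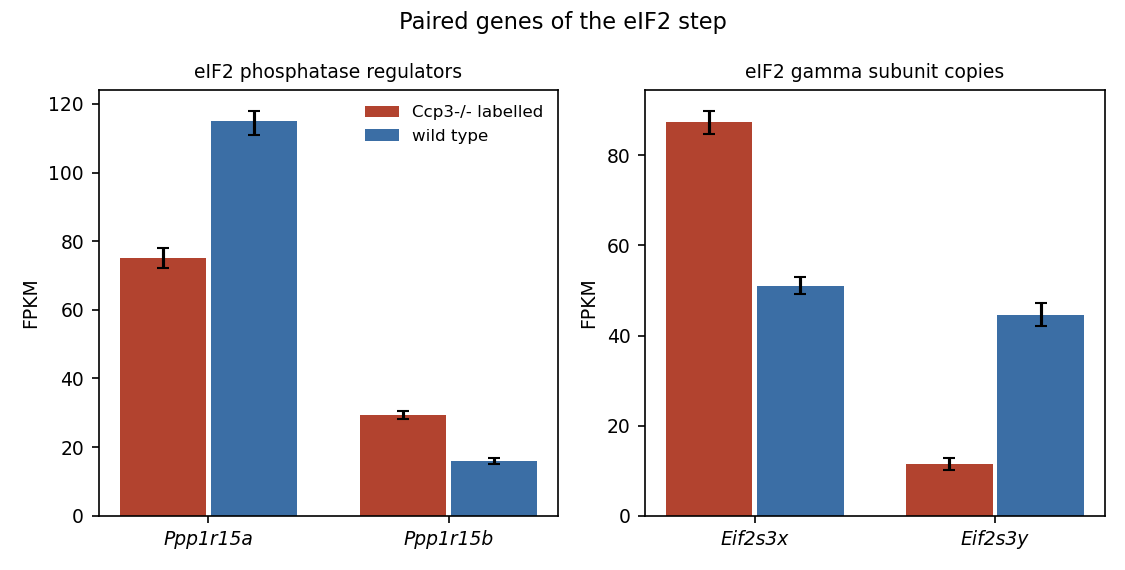
FPKM of the phosphatase regulator genes Ppp1r15a and Ppp1r15b and of the eIF2 gamma copies Eif2s3x and Eif2s3y in the Ccp3-/- labelled and wild type libraries, 1 library each, with 95% Poisson intervals of the estimated reads. In each pair one gene was higher and the other lower in the Ccp3-/- labelled library.

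Factors that pair with ATF4 or belong to related bZIP families had 15 measured genes. Of these, 4 were higher and 1 was lower past the rule, against 6.11% and 6.13% of all genes measured. Their median was 0.32, or 0.16 after length centring. The 4 were Cebpb (21.9 FPKM knockout-labelled, 10.6 FPKM wild type), Jdp2 (31.2 FPKM knockout-labelled, 17.4 FPKM wild type), Cebpa (49.2 FPKM knockout-labelled, 27.8 FPKM wild type) and Cebpd (13.8 FPKM knockout-labelled, 8.67 FPKM wild type). Batf2, named after its value was seen, was the lower one, at 0.91 FPKM in the knockout-labelled library and 2.48 FPKM in the wild type library. It passed the filter on low values through its wild type level, from about 18 knockout-labelled and 53 wild type reads. At a mean of at least 5 FPKM, or with a pseudocount of 5, 0 genes of the list were lower. The C/EBP genes also serve myeloid differentiation, and markers of the neutrophil lineage stood beside them: 9 of 15 were higher past the rule and 0 lower, all 15 were listed in both libraries, and their summed level was 12081 FPKM in the knockout-labelled library and 8670.0 FPKM in the wild type library. The part of these cells in the C/EBP differences was not tested.

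The metabolic targets of ATF4 were examined in lists that also hold Asns, Psat1 and Slc7a11. Of 13 measured genes of amino acid and one-carbon synthesis, 12 lay within the rule, a share near the 87.8% of all genes, with a median of 0.03. Mthfd2, of mitochondrial folate metabolism, was listed at 25.0 FPKM in the knockout-labelled library and 17.3 FPKM in the wild type library, and Pck2 at 24.6 FPKM in the knockout-labelled library and 30.7 FPKM in the wild type library. The one gene past the rule was Gpt2, named after its value was seen, at 1.88 FPKM in the knockout-labelled library and 0.88 FPKM in the wild type library. It passed the filter on low values through its knockout-labelled level, and at 0.55 after length centring it lay inside the rule. Over all genes measured, 6.11% were higher and 6.13% lower past the rule. Of 9 measured amino acid transporters, 2 were higher and 0 lower, with a median of 0.29, or 0.15 after length centring. These were Slc7a5, which imports large neutral amino acids, at 48.2 FPKM in the knockout-labelled library and 29.6 FPKM in the wild type library, and Slc7a1, which imports arginine and lysine, at 12.7 FPKM in the knockout-labelled library and 8.06 FPKM in the wild type library. After length centring Slc7a1 stood at 0.32, inside the rule.

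Genes of tRNA charging and export were all above 0 in the deposited values. All 13 measured genes had positive differences, as did 6087 of the 11985 genes measured, with a median of 0.26, or 0.20 after length centring. Just 2 were higher past the rule, against 6.11% of all genes, and neither was after centring (Xpot 0.46, Eprs 0.44). Sars, named after its value was seen, stood at -0.03 after centring, so the shared direction did not hold there. Xpot, the tRNA exporter, was listed at 28.5 FPKM in the knockout-labelled library and 17.9 FPKM in the wild type library. Eprs, which charges glutamate and proline, was listed at 99.8 FPKM in the knockout-labelled library and 65.8 FPKM in the wild type library. Of 22 other measured ATF4 and CHOP targets, 5 were higher and 1 was lower, against 6.11% and 6.13% of all genes. Their median was 0.13, or 0.07 after length centring. The higher ones included Nupr1, a stress-induced chromatin protein (44.3 FPKM knockout-labelled, 19.9 FPKM wild type), and Ero1a, an oxidase of ER disulfide formation (21.6 FPKM knockout-labelled, 10.3 FPKM wild type). Vegfa (11.2 FPKM knockout-labelled, 6.62 FPKM wild type) and Ppp1r15b, which is also counted with the phosphatase genes above, were higher too. The others were Pmaip1, which encodes the death factor NOXA, at 6.35 FPKM in the knockout-labelled library and 2.77 FPKM in the wild type library, and the autophagy gene Map1lc3b, which was lower at 38.3 FPKM in the knockout-labelled library and 58.7 FPKM in the wild type library. Map1lc3b lay inside the rule after centring (-0.51), as it did with equal sums and with a pseudocount of 5. These last 2 were named after their values were seen.

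**Figure D4:**
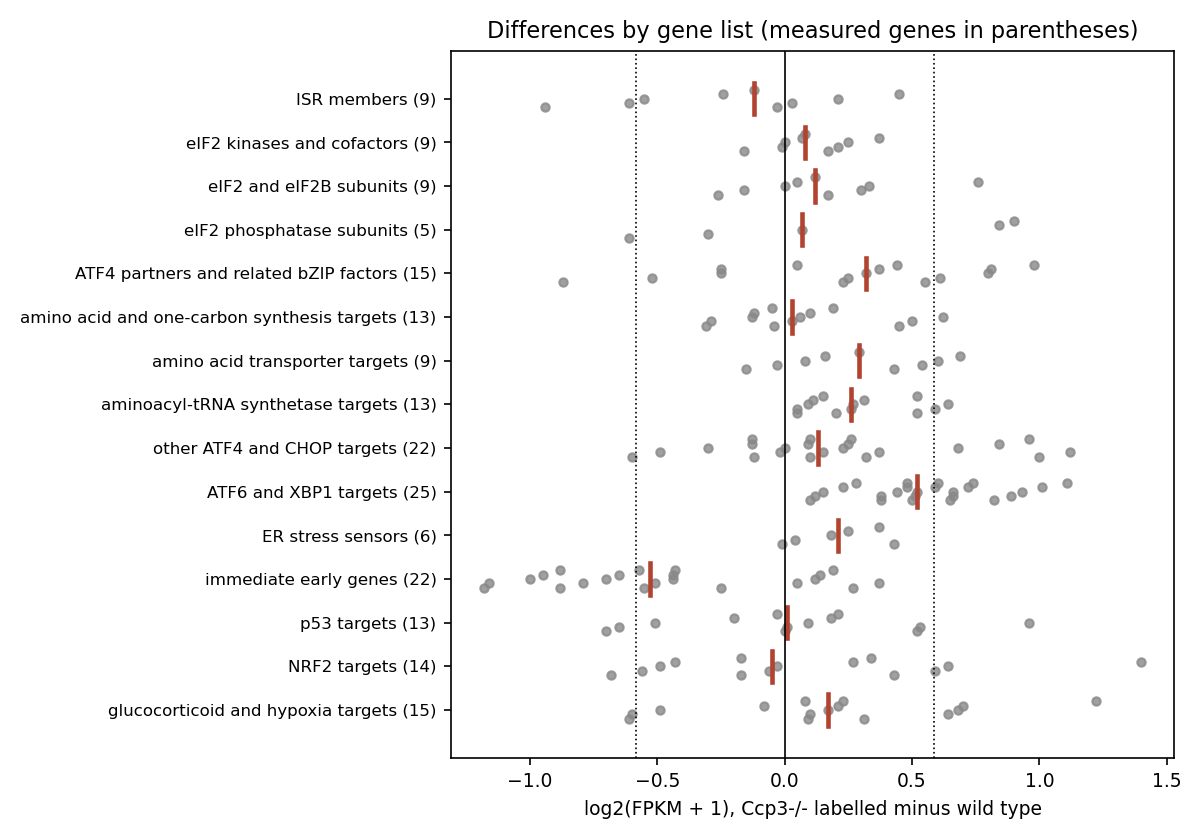
Differences on the log2(FPKM + 1) scale, Ccp3-/- labelled minus wild type, for the measured genes (grey points) of 15 gene lists, with list medians as red bars and 1.5-fold as dotted lines. Of the lists shown, ATF6 and XBP1 targets had the highest median (0.52) and immediate early genes the lowest (-0.53).

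The other arms of the ER stress response act through ATF6 and XBP1. All 25 measured targets of ATF6 and XBP1, the factors that induce ER chaperones and degradation enzymes, had positive differences, 12 of them past the rule, with a median of 0.52. Over all 11985 genes measured, 6087 had positive differences and 6.11% were higher past the rule. Sdf2l1 was listed at 85.5 FPKM in the knockout-labelled library and 39.1 FPKM in the wild type library, and Xbp1 itself at 70.3 FPKM in the knockout-labelled library and 42.4 FPKM in the wild type library. Of 22 measured immediate early genes, which respond to growth factors and to handling of cells, 9 were lower and 0 higher, with a median of -0.53. The share lower past the rule over all genes was 6.13%. Fos was listed at 105 FPKM in the knockout-labelled library and 194 FPKM in the wild type library, and Egr1 at 83.0 FPKM in the knockout-labelled library and 186 FPKM in the wild type library. Ppp1r15a is itself known to respond quickly to growth factors and DNA damage, and whether its difference shared a source with these genes was not tested.

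Genes that share other regulators with single members showed no uniform direction. Of 14 measured targets of NRF2, which also drives Slc7a11, 3 were higher and 1 was lower, with Gsr, glutathione reductase, at 77.2 FPKM in the knockout-labelled library and 28.7 FPKM in the wild type library. The lower one was Nqo1, named after its value was seen, at 1.35 FPKM in the knockout-labelled library and 2.76 FPKM in the wild type library. Of 15 measured targets of glucocorticoid and hypoxia signalling, a list that holds Ddit4, 4 were higher and 2 lower, with Klf9 at 11.4 FPKM in the knockout-labelled library and 4.35 FPKM in the wild type library. Of 13 measured p53 targets, a pathway that also induces Sesn2, 1 was higher and 2 were lower, with a median of 0.01. Cdkn1a, the p53-induced inhibitor of the cell cycle, was listed at 20.2 FPKM in the knockout-labelled library and 23.4 FPKM in the wild type library. The lower calls rested on low genes: at a mean of at least 5 FPKM, 0 were lower in each of the lists of NRF2, glucocorticoid and hypoxia, and p53 targets. Of all genes measured, 6.13% were lower and 6.11% higher past the rule.

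Marker lists of other cells also differed between the libraries. The counts below stand beside 6.13% lower and 6.11% higher past the rule among all genes measured. Among 10 measured B cell markers, 9 were lower past the rule, and the sum over all 11 listed was 67.1 FPKM in the knockout-labelled library and 150.3 FPKM in the wild type library. Pax5 (0.84 FPKM knockout-labelled, 1.79 FPKM wild type) and Ebf1 (0.79 FPKM knockout-labelled, 2.12 FPKM wild type), named after their values were seen, are among the 9. They passed the filter on low values through their wild type levels. All 8 measured dendritic cell markers were lower, with a sum over all 9 listed of 215 FPKM in the knockout-labelled library and 388 FPKM in the wild type library. Of 5 measured plasma cell markers, 3 were higher and 0 lower, and the sum over all 7 listed was 268 FPKM in the knockout-labelled library and 145 FPKM in the wild type library. The 3 were Jchain (172 FPKM knockout-labelled, 84.5 FPKM wild type), Mzb1 and Xbp1, which also counts among the ATF6 and XBP1 targets, while Sdc1 was at 4.73 FPKM in the knockout-labelled library and 5.82 FPKM in the wild type library. The summed level of erythroid markers was 522 FPKM in the knockout-labelled library and 1518 FPKM in the wild type library. Past the rule 4 of 9 were lower and 0 higher, though 4 of the 9 had differences above 0. Of the multipotent progenitor markers 2 of 4 were lower, with sums of 522 FPKM knockout-labelled and 879.7 FPKM wild type, and of the T and NK cell markers 4 of 9 measured were lower, with sums of 74.3 FPKM knockout-labelled and 106 FPKM wild type. Monocyte markers were higher in 4 of 9, with sums of 939 FPKM knockout-labelled and 812 FPKM wild type. Of the stem cell markers 4 of 13 were lower, with sums of 203 FPKM knockout-labelled and 279.6 FPKM wild type. Among megakaryocyte markers 1 of 5 was higher and 2 were lower, among mast cell and basophil markers 1 of 6 was lower, and among endothelial and stromal markers 2 of 3 and 1 of 2 measured were lower. Length centring moved the median of T and NK cell markers from -0.38 to -0.09 and that of megakaryocyte markers from -0.20 to 0.14. Medians went from -1.09 to -0.97 for B cell, -0.82 to -0.76 for dendritic cell and -0.49 to -0.39 for erythroid markers. They went from 0.32 to 0.54 for monocyte, 0.72 to 0.73 for plasma cell and -0.69 to -0.71 for multipotent progenitor markers. For stem cell markers the median went from -0.13 to -0.30. No marker of these lists was at 0 in either library. Their part in the differences of the 10 genes was not tested.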

How the data were processed

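The deposited file of each library gives, per Entrez gene, a transcript length and an FPKM value computed by the authors. The submitters' processing notes list RSEM, HISAT2, HISAT and the build mm9, without versions or settings. Symbols came from RefSeq GRCm38.p6, in which 17169 of 17216 identifiers matched. Because the builds differ, coordinates are those of RefSeq promoter windows, not of the files.

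A gene missing from a file was taken as 0. Reads were estimated from the step of low FPKM values in short genes with 1 transcript. Steps of 70.4 and 65.1 in FPKM times length (less 37 and 38 bases), for the knockout-labelled and wild type libraries, put 88.6% and 86.5% of the low values used within 0.15 of a whole read. The step was chosen on these same values, so read numbers are approximate. Intervals are exact conditional ones for the knockout to wild type ratio, Poisson for single levels and log-normal for ratios of ratios, all at 95% and all for counting error only.

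Differences are log2(FPKM + 1), knockout-labelled minus wild type. There was no test, since each genotype had 1 library. Length centring subtracted the median of the 200 measured genes nearest in length. The members, the 15 pathway lists and the 13 cell type lists were chosen with earlier results of these data known. Named genes were the 10 members, Agbl3, and up to 4 further genes per list that averaged 5 FPKM or more, by absolute difference. Genes outside that rule are said to be so, except Cd48, Slamf1, Xist and the overlapping genes Mbd6 and Mars1, which were looked up for checks, and Xbp1, Fos and Cdkn1a, which were picked from their lists as familiar genes. Procedures were tested on simulated data. The work used scipy 1.17.1, pandas 2.3.3 and numpy 2.4.6 in Python 3.11.15, with figures from matplotlib 3.10.9.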

Additional observations from a re-analysis of the deposited data

How the results depend on the processing

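The count of members lower past the rule was 2 and that of members higher was 0 as deposited. With equal FPKM sums they were 1 and 1, while the all-gene median became 0.18. The lower count was 1 after length centring and at a mean of at least 5 FPKM (which leaves out Trib3, Sesn2 and Chac1), and 0 with a pseudocount of 5 or a 2-fold rule. A looser rule of size gave 3 lower and 1 higher. Counting intervals that exclude 1, an alternative chosen after seeing the data, gave 5 lower and 1 higher. By these intervals 23 ATF6 and XBP1 targets were higher (12 by the 1.5-fold rule), and 16 immediate early genes were lower and 5 higher (9 and 0 by the rule). The median of the members ran from -0.14 to 0.06, the highest with equal sums. Trib3 stayed below 0 in all 7 alternatives that measured it and Ppp1r15a in all 8. Asns stayed above 0 in all 8. Most of these alternatives could not have shown otherwise. A filter or a pseudocount cannot change the sign of a single gene, and the upper quartile and median scalings were factors of 0.999 and 0.991. Equal sums and length centring could, and gave -0.86 and -0.89 for Trib3, -0.42 and -0.56 for Ppp1r15a, and 0.63 and 0.56 for Asns. Over all genes, 732 were higher and 735 lower, against 1474 and 397 with equal sums (78.8% of calls higher, 49.9% as deposited), 282 and 322 with a pseudocount of 5, 145 and 186 by the 2-fold rule, 2146 and 2053 by the looser rule and 3735 and 3241 by counting intervals. Except where an alternative's own construction shows it, the cause was not tested. Among 328 other values of the pathway lists under alternatives, 254 stayed close and 74 moved, with 21 of the moved ones under equal sums. No paired analysis was possible because each genotype had 1 library. Trib3 and Chac1 rest on fewer than 100 reads per library, which limits their precision.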
